A study of Mus with 3 samples.

Results

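The genes described here encode the proteins of the cytosolic ribosome, the particle that translates messenger RNA in the cytoplasm. They were found by the gene name printed for each probe: Rpl or Rps followed by a number, with an optional a, l, x or y, together with Rplp0, Rplp1, Rplp2 and Rpsa. Names of S6 kinases (Rps6k) and of pseudogenes (-ps) were left out. The rule gave 80 of the 23756 gene names on the array, 49 of the large subunit and 31 of the small subunit, carried by 180 probes.

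The study compared hippocampal RNA from 3 groups of Slc:ddY mice, males of an outbred stock aged 6 weeks. The mice of the NCO group took distilled water by mouth for 15 days and were given 5 µL of distilled water on day 8, by a route the labels do not spell out. The ACO mice took distilled water by mouth for the same 15 days and received 10 nmol of the amyloid fragment Aβ25-35 in 5 µL into the cerebral ventricles on day 8. The ASO mice received the same peptide injection and were dosed by mouth with shochu oil at 2000 mg/kg per day; the labels once write SCO for the injected oil group, which was read as ASO. All mice ran a Y-maze on day 16 before the hippocampus was taken. RNA of the 10 mice of a group was joined 2 by 2 into 5 sets, the sets were mixed in equal amounts, and 200 ng of the mixture, carrying the dye Cy3 after labelling, went onto 1 array. Each group is thus 1 pool on 1 array, the spread between mice was not measured, and no test between the groups was possible. Peptide injection was compared with water by ACO minus NCO, and oil in injected mice by ASO minus ACO; no array carried oil without the peptide, so ASO minus NCO joins both treatments.

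A ribosome is built in the nucleolus and nucleus from ribosomal RNAs and matched amounts of its proteins, and the messages for these proteins are among the most abundant of most cells. Their messages begin with a pyrimidine tract through which the kinase mTORC1 controls their translation. In neurons, ribosomes are also found in dendrites, near synapses. Several of the proteins act outside the ribosome, and mutations in others reduce red cell production.

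Of the 80 genes, 77 had at least 1 probe measured on all 3 arrays, meaning a spot signal-to-noise ratio of at least 2.6 on each. The probe with the highest mean signal stood for its gene. Signals are background-corrected intensities scaled to a common 75th percentile, and a difference is taken on the log2(signal + 50) scale. The least clearly measured gene inside the limit was Rpl21, whose ratios on NCO, ACO and ASO were 9.19, 16.4 and 9.21. The nearest outside it was Rpl3l, with 0.05, 1.36 and 0.33.

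The ribosomal protein genes were among the brightest features of the array. Of the 77 measured genes, 67 lay in the top 10% of all 13209 measured genes by mean signal. On NCO, ACO and ASO their median signal was 20533, 19631 and 22443, where the median of all genes was 759, 768 and 757. Their summed signal made up 4.71%, 4.58% and 5.11% of the total of all measured genes. The share was lowest on ACO and highest on ASO. Signals order probes and not amounts of RNA, because probes differ in how strongly they hybridise.

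The brightest was Rpl10, an X-linked protein joined late to the large subunit, with 61828, 57366 and 58542 on NCO, ACO and ASO. Its spot had 5%, 10% and 7% saturated pixels on these arrays. Rps14, a small-subunit protein, gave 52169, 48208 and 64966, and its spot on ASO had 60% saturated pixels. Rpl37a and Rpl29, both of the large subunit, followed. Rpl37a stood at 49867, 43793 and 55783, with 20% saturated pixels on ASO. Rpl29, also known as a heparin-binding protein, stood at 49910, 43947 and 54681. Rps16, which reaches toward the transfer RNA in the P site, gave 50936, 47768 and 49636. ACO was the lowest array for all 5 of these genes, and ASO was the highest for 3 of them.

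The lowest end was set by a few genes far below the rest. Rpl21 read 202, 214 and 163. Rps21 read 916, 955 and 1189, and Rps27l read 1321, 1404 and 1439. Rpl4, whose protein lines the exit tunnel, and Rpl5, which carries an RNA of the large subunit into the assembling particle, read 2067 and 3264 on NCO. Of these 5, Rpl21 was lowest on ASO and the others were highest there.

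**Figure D1:**
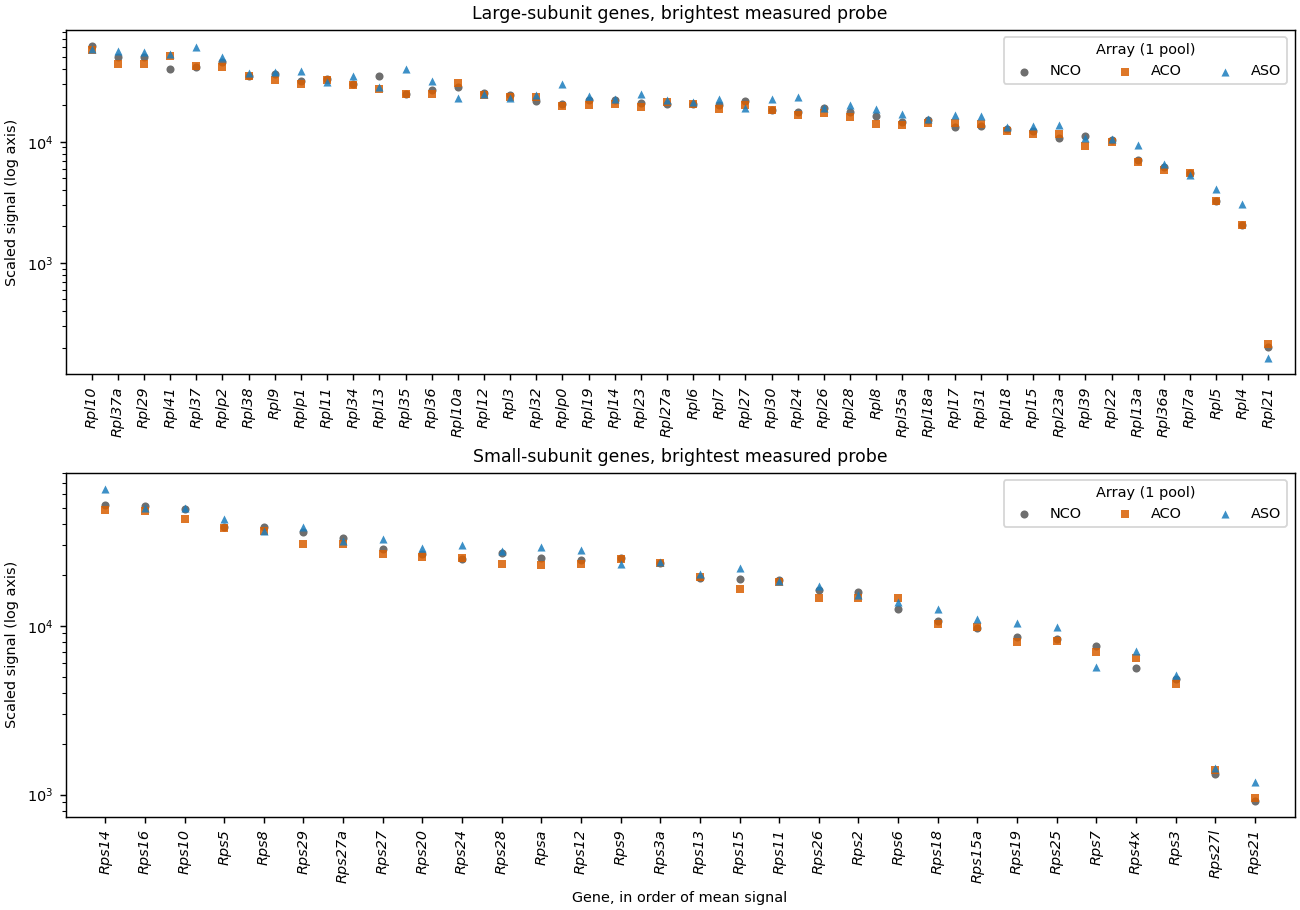
Scaled signal (vertical log axis) of the brightest measured probe of the ribosomal protein genes described here, with 1 point for each of the NCO, ACO and ASO arrays and no error bars because each group is 1 pool. The upper panel holds large-subunit genes and the lower panel small-subunit genes, in order of mean signal. Most genes lie within a narrow band on all 3 arrays, and ASO points lie above the ACO points for most of them.

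On each array 50.9 to 53.7% of all probes were above background, and 3, 5 and 14 probes were saturated on NCO, ACO and ASO. The arrays shared 1 slide. The median difference of all measured genes was 0.01 for ACO minus NCO, -0.02 for ASO minus ACO and -0.02 for ASO minus NCO. Within an array, 250 probes printed 10 times gave a median SD of 0.08, 0.09 and 0.10 between spots in these comparisons, which covers spot error and not the spread between mice. All 14 markers of hippocampal neurons were measured on every array.

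In ACO against NCO the ribosomal protein genes lay slightly low. Their median difference was -0.07, with 18 of the 77 genes above 0 and 59 below, against 51.9% of all genes above 0. A single gene, Rpl41, was at least 1.2-fold higher and 3 genes were at least 1.2-fold lower, where the shares among all genes were 2.78% and 2.7%. No gene was 2-fold apart in either direction, and 0.0379% of all genes were in each.

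In ASO against ACO most of the genes lay higher. The median difference was 0.22, with 67 of 77 genes above 0 and 10 below, against 46.6% of all genes above 0. At least 1.2-fold higher were 28 genes, against 10.1% of all genes, and at least 1.2-fold lower were 3, against 9.44%. The differences ran from -0.42 for Rpl10a to 0.66 for Rpl35, and none reached 2-fold, where 0.189% of all genes were higher and 0.0682% lower. In ASO against NCO, which shares the ASO array, the median was 0.13, with 59 genes above 0 and 18 below, against 46.9% of all genes above 0. There 19 genes were at least 1.2-fold higher and 3 lower, against 10.3% and 8.39%, and none was 2-fold apart, against 0.189% of all genes higher and 0.0909% lower.

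Among the 3 scalings compared, the choice set the size of this difference but not its side. All 3 were computed from the gene spots, and scaling to the array's own control probes was not tried. Under quantile normalization the ASO minus ACO median was 0.08, with 51 genes above 0 and 26 below, against 42.7% of all genes above 0. There 11 genes were at least 1.2-fold higher and 3 lower, against 8.75% and 10.3% of all genes. Under cyclic loess it was 0.18, with 58 above 0, 20 at least 1.2-fold higher and 3 lower, against 47.8%, 10.2% and 8.15% of all genes. The median of all genes was -0.03 under quantile normalization and -0.01 under cyclic loess. For ACO minus NCO the median moved to -0.02 under both, with 30 and 27 genes above 0, against 52% and 52.5% of all genes. Quantile normalization thus left fewer than the 28 genes past 1.2-fold, and under all 3 scalings the median for ASO minus ACO stayed above that of all genes.

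**Figure D2:**
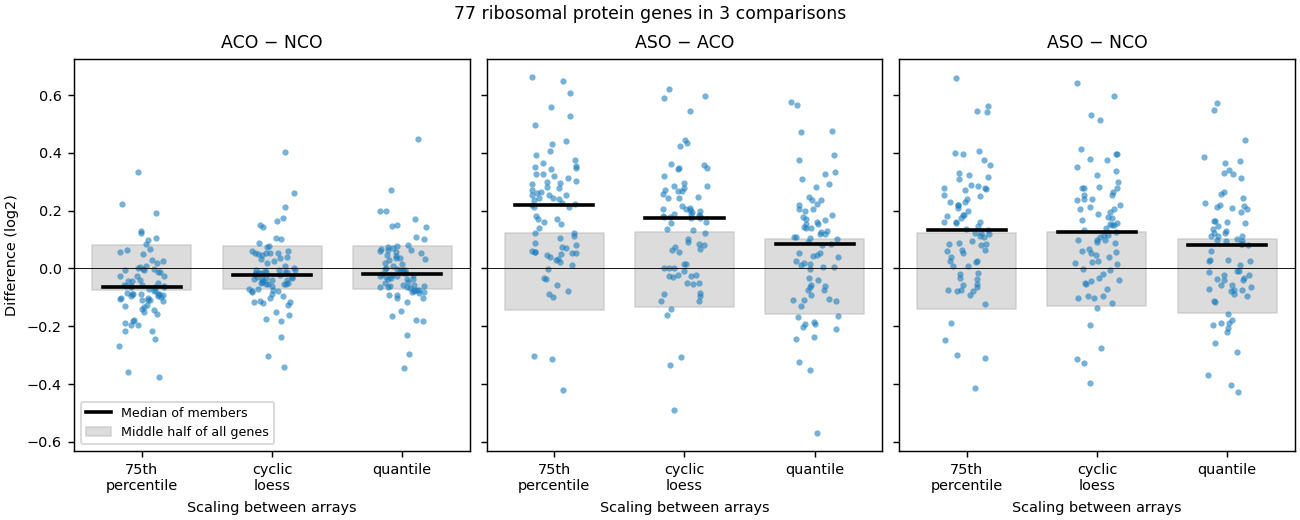
Difference on the log2 scale (vertical axis) of each of the 77 measured ribosomal protein genes in the 3 comparisons, under 3 scalings between arrays (horizontal axis); points are genes, black bars their median, and grey boxes span the range from the 25th to the 75th percentile of all measured genes. The ASO minus ACO median lies at 0.22 under 75th percentile scaling, 0.18 under cyclic loess and 0.08 under quantile normalization.

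The difference varied with signal, without a steady trend in ASO minus ACO. There the median of genes outside the set was 0.05 in the dimmest 10% and -0.06 in the 8th of 10 bins of rising signal. In the top 10% by signal the 1254 genes outside the set had a median of -0.04 for ACO minus NCO and 0.02 for ASO minus ACO, with 33.3% and 53.8% of them above 0. The ribosomal protein medians of -0.07 and 0.22 lay on the same sides, with 23.4% and 87.0% of the genes above 0. The array's own E1A control probes differed on the same sides too. Of the 10 listed, 5 were measured on all arrays, with signals from 109 to 33720, and for all 5 the NCO signal was above the ACO signal and the ASO signal was above both. Their medians were -0.14 for ACO minus NCO, 0.48 for ASO minus ACO and 0.34 for ASO minus NCO. The part of array-wide signal in the ribosomal protein values was not tested.

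**Figure D3:**
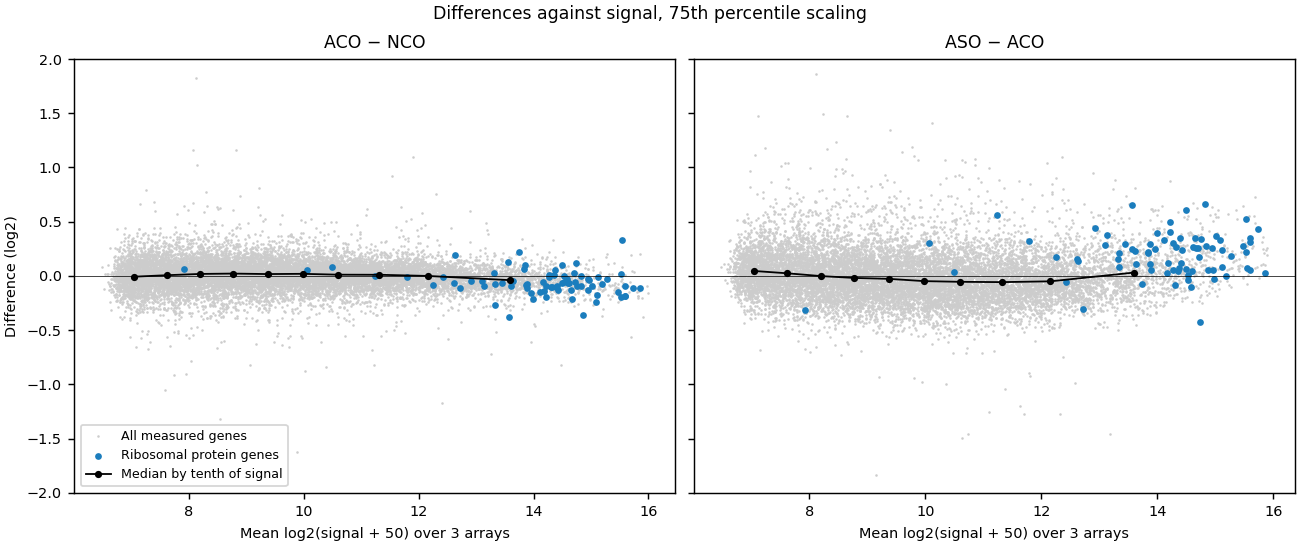
Difference on the log2 scale under 75th percentile scaling (vertical axis) against mean log2(signal + 50) over the 3 arrays (horizontal axis), for ACO minus NCO and ASO minus ACO; grey points are all measured genes, blue points the ribosomal protein genes, and the black line joins the medians of 10 equal bins of signal. Most blue points lie in the top bin, with a median of -0.07 on the left and 0.22 on the right.

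Array by array, ASO gave the highest signal for 58 of the 77 genes and ACO the lowest for 52. Among all genes 36.8% were highest on ASO and 28.2% lowest on ACO. With quantile normalization 40 of the 77 were highest on ASO, against 33.0% of all genes, and 38 were lowest on ACO. The share of all genes lowest on ACO was not computed with that normalization. Under percentile scaling NCO was highest for 16 of the 77 genes, against 29.7% of all genes. ACO was highest for 3, against 33.5% of all genes.

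The 46 measured large-subunit genes had a median of -0.07 for ACO minus NCO, 0.22 for ASO minus ACO and 0.13 for ASO minus NCO. In ASO minus ACO 40 of them lay above 0, 17 were at least 1.2-fold higher and 2 were lower. The shares of all genes were 46.6%, 10.1% and 9.44%, and the counts of both subunits are read against them. The 31 small-subunit genes had medians of -0.08, 0.18 and 0.12, with 27 above 0 in ASO minus ACO, 11 at least 1.2-fold higher and 1 lower. Both subunits thus lay on the same side in each comparison; the difference between them was not tested.

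Rpl35, a large-subunit protein at the mouth of the exit tunnel, had the largest ASO difference. Its only measured probe read 24956 on NCO, 24909 on ACO and 39480 on ASO. NCO and ACO were nearly the same, and ASO stood apart from both, at 0.66 above each on the log2 scale and at 0.47 above ACO under quantile normalization. Rpl4 had the same shape at a much lower signal, with 2067, 2071 and 3075. Its ASO minus ACO difference was 0.56, and 0.58 under quantile normalization. Rpl37, a zinc-binding protein, read 41268, 41850 and 60295. ASO was again the one high array, at 0.53 above ACO, but 25% of its pixels were saturated there and quantile normalization gave 0.24. The spots around Rpl35, Rpl4 and Rpl37 had medians of 0.08, 0.01 and 0.11 in ASO minus ACO. Less those, their differences were 0.58, 0.55 and 0.42.

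Rpl41, the shortest of the ribosomal proteins, had another order. It read 40167 on NCO, 50672 on ACO and 53318 on ASO. NCO was the low array, and Rpl41 was the highest of the set in ACO minus NCO, at 0.33 and at 0.45 under quantile normalization. Its ASO minus ACO difference was 0.07 under percentile scaling and -0.18 under quantile normalization. Rpl23a, which helps to dock the signal recognition particle at the exit tunnel, read 10671, 11682 and 13845. Its values climbed from NCO through ACO to ASO, and its differences were 0.13 for ACO minus NCO and 0.24 for ASO minus ACO.

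Some large-subunit genes had low values in ACO minus NCO. Rpl13 read 34848, 27156 and 28120. At this probe NCO was high, with -0.36 for ACO minus NCO and 0.05 for ASO minus ACO. Its 3 other probes gave -0.09, -0.02 and 0.37 for ACO minus NCO, and each put ASO above both other arrays, so the pattern rests on 1 of 4 probes. Rpl39, a small protein of the exit tunnel, read 11096, 9194 and 10655. ACO was its lowest array at this probe, at -0.27 against NCO, which is past 1.2-fold, or -0.23 under quantile normalization, which is not. The other measured probes gave 0.03 and 0.05, on the other side. Rpl8, close to the catalytic centre, read 16419, 14113 and 18543. ACO was again lowest and ASO highest, with -0.22 for ACO minus NCO and 0.39 for ASO minus ACO, while its other probe gave -0.11 and 0.09; the spots around it on the slide had a median of -0.15 in ACO minus NCO.

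A few large-subunit genes were lowest on ASO at their brightest probe. Rpl10a, which forms the flexible stalk beside the exit site for transfer RNA, read 28288, 30778 and 22968. ASO was its low array, at -0.42 against ACO and -0.30 against NCO, and under quantile normalization at -0.57 against ACO. Its other measured probe read 23370, 23403 and 24302 and had a difference of 0.05, so the low value rests on 1 of 2 probes. The spots around the brightest probe lay at -0.17 against ACO and -0.26 against NCO, and less those medians its differences were -0.25 and -0.04, both within 1.2-fold. Rpl21 at 202, 214 and 163 lay 0.31 below ACO on ASO, far below the signal of the next dimmest gene. Rpl27 read 21682, 20214 and 19025, with ASO lowest at -0.09 against ACO and -0.19 against NCO; its other probe gave 0.01 and 0.00, and the surrounding spots lay at -0.06 and -0.14.

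The stalk proteins recruit elongation factors to the large subunit, and all 3 were higher on ASO. Rplp0, the base to which the others bind, read 20543, 19631 and 29907. NCO and ACO were close, and ASO lay 0.61 above ACO and 0.54 above NCO, or 0.48 above ACO under quantile normalization. Its other probes gave 0.16 and 0.41. Rplp1 read 31646, 29754 and 38334. ACO was lowest and ASO highest, 0.37 above ACO, or 0.20 under quantile normalization. Rplp2 read 45701, 41154 and 49725 in the same order, 0.27 above ACO, or 0.04 under quantile normalization, with 4% saturated pixels on ASO. Against NCO it lay at 0.12, or -0.01 under quantile normalization. The spots around Rplp0, Rplp1 and Rplp2 had medians of 0.08, 0.10 and 0.10 in ASO minus ACO. Less those, their differences were 0.52, 0.26 and 0.17.

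In the small subunit, Rps29, one of the genes mutated in Diamond-Blackfan anaemia, read 36078, 30444 and 38237. ACO was lowest, at -0.24 against NCO, and ASO lay 0.33 above it, or 0.14 under quantile normalization. Rps21 at 916, 955 and 1189 was 0.30 higher on ASO than on ACO and 0.33 under quantile normalization.

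Rps14 was saturated on ASO, so its difference is a bound. Its ASO signal was at least 1.35-fold the ACO signal and at least 1.25-fold the NCO signal, on the scaled signals. The spots around it had medians of 0.09 in ASO minus ACO and 0.12 in ASO minus NCO. Rps7, which can also bind MDM2, read 7597, 7034 and 5688. ASO was its low array, at -0.30 against ACO and -0.41 against NCO, the lowest ASO minus NCO value of the set. The spots around it on the slide were low too, with a median of -0.19 in ASO minus ACO and -0.20 in ASO minus NCO, and less those its differences were -0.11 and -0.22. Rps9 read 25282, 24840 and 23207, with ASO lowest at -0.10 against ACO while its surroundings were at -0.13.

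Among the genes with roles outside the ribosome, the pair that holds MDM2 when ribosome assembly fails did not share a pattern at their brightest probes. Rpl5 read 3264, 3237 and 4053, with ASO high at 0.32 above ACO. Rpl11 read 32975, 32038 and 31327 at its brightest probe, where ASO was lowest at -0.03 against ACO. Its other probes read 3190, 3184 and 7538, and 9458, 10067 and 15056. Both put ASO well above the other arrays, by 1.23 and 0.58, so the probes of Rpl11 disagree. Rps6, the substrate of the S6 kinases, read 12520, 14639 and 13858. NCO was its low array, with 0.22 for ACO minus NCO, or 0.11 less the surrounding spots, and its other probes gave 0.04 and 0.13. ASO lay below ACO at -0.08, and at -0.09 and -0.25 at the other probes.

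Rpsa, also known as the laminin receptor, read 25174, 22957 and 29296 at its brightest probe. ACO was lowest and ASO highest, 0.35 above ACO. Rps27a, made as a fusion with ubiquitin, read 33272, 30387 and 31604. ASO was 0.06 above ACO and at -0.07 against NCO, while its second probe read 5132, 4921 and 8459, a difference of 0.78 for ASO minus ACO. The probes of Rps27a thus put ASO on different sides of NCO.

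The paralogs of restricted expression were not measured above the limit. Rpl3l, the form of heart and skeletal muscle, had signals of 24.6, 33.7 and 15.9, Rpl10l, the testis form, 16.1, 22.3 and 18.9, and Rpl39l 12.9, 6.1 and 17.9. Their counterparts were bright. Rpl3, next to the catalytic centre, read 24400, 23463 and 22901, with ASO at -0.03 against ACO, while its second probe read 19003, 17914 and 19820 and put ASO highest, at 0.15. Rpl10 differed by 0.03 and Rpl39 by 0.21 in ASO minus ACO at their brightest probes. The other probes of Rpl10, with no saturated pixels, gave 0.55 and 0.12, or 0.37 and -0.04 under quantile normalization. Those of Rpl39 gave 0.21 and -0.17, the latter at a signal of 52.3 on NCO.

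Other pairs were measured on both sides. Rpl22 read 10415, 9911 and 10481, and its paralog Rpl22l1, outside the name rule, 9857, 9781 and 11656. The difference for ASO minus ACO was 0.08 for Rpl22, with 0.01 at its other probe, and 0.25 for Rpl22l1. Rpl36a, X-linked, read 6143, 5871 and 6564, and Rpl36al, its autosomal copy, 1451, 1510 and 1920. Their ASO minus ACO differences were 0.16 and 0.34, but the other probes of Rpl36a gave 0.289 and 0.293. Rps27 read 28547, 26734 and 32437 at its brightest probe, a difference of 0.28, or 0.12 under quantile normalization. Its other probes gave 0.02, 0.20 and 0.66. Rps27l, a target of p53, differed by 0.03, so the contrast within this pair depends on the probe. In each pair ASO was above ACO.

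The X-linked genes Rpl10, Rpl36a, Rpl39 and Rps4x had medians of -0.09 for ACO minus NCO and 0.15 for ASO minus ACO. Rps4x read 5600, 6409 and 7064 at its brightest probe, with NCO lowest, 0.19 for ACO minus NCO and 0.14 for ASO minus ACO. Its other probe gave 0.08 and 0.84 in these comparisons, so the size differs between its probes. All 4 lay above 0 in ASO minus ACO, though Rpl10 turned to -0.24 under quantile normalization. The gene name Rps4l appears on no probe; through the accession in the RefSeq gene table (assembly GRCm38.p6) 1 further probe was assigned to it.

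The 42 measured genes not described by name so far had medians close to those of the set. In ASO minus ACO they ran from -0.06 to 0.50 with a median of 0.22, and 40 lay above 0, against 46.6% of all genes. At least 1.2-fold higher were 12, against 10.1% of all genes, and 0 were lower. In ACO minus NCO they ran from -0.22 to 0.10 with a median of -0.06, and 0 were past 1.2-fold in either direction. In ASO minus NCO their median was 0.13 and 7 were at least 1.2-fold higher, against 10.3% of all genes. Genes had been named partly for being the highest or lowest of a comparison, so the extremes were already taken out. The narrower ranges and the counts of 0 follow from that choice and are no check on the set.

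Different probes of 1 gene did not give the same size. Of the 77 genes 52 had several measured probes, with 92 probes besides the brightest. In ASO minus ACO the other probes lay on the same side as the brightest in 44 of the 52 genes by their median, and every probe lay above 0 in 36. The median of the brightest probes of these 52 genes was 0.19 and that of the others 0.26, and 43 of the 92 other probes were at least 1.2-fold higher with 0 lower. The median range within a gene was 0.30 in ASO minus ACO and 0.11 in ACO minus NCO. The spread between probes of a gene was thus larger than the shift of the set in both comparisons.

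The genes in the next 3 paragraphs that were not named above were chosen after their values were seen. Every probe was at least 1.2-fold higher in ASO minus ACO for 3 genes. They were Rpl24, with 3 probes from 0.42 to 0.53, Rps12, with 2 probes from 0.26 to 0.57, and Rpsa, with 3 probes from 0.27 to 0.55. In ASO minus NCO 5 genes did so: Rpl23a, Rpl24, Rplp0, Rps24 and Rps4x. These counts are under 75th percentile scaling, and no share of all genes with several probes was computed. Under quantile normalization the ASO minus ACO probes of Rpl24 gave 0.36 to 0.49. The brightest probes of Rps12 and Rpsa gave 0.12 and 0.21 there, and that of Rps24 gave 0.20 in ASO minus NCO, all within 1.2-fold. Rpl24, which bridges the subunits, read 17671, 16521 and 23333 at its brightest probe, with ASO the one high array.

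Some probes stood far from the others of their gene. A probe of Rpl36 read 3192 on NCO, 22267 on ACO and 25592 on ASO, a difference of 2.78 for ACO minus NCO, while its brightest probe read 26551, 24949 and 31672 with -0.09 and the remaining one gave 0.03. A probe of Rpsa read 19898, 7018 and 10281, a difference of -1.50 for ACO minus NCO, where the other 2 gave -0.13 and -0.05. In both genes 1 probe alone set NCO apart. The authors' deposited table of 475 probes held 2 probes of ribosomal protein genes, and they were these: Rpl36 at 2980.8, 21481.8 and 23020.4, and Rpsa at 18663.8, 6752.5 and 9242.8 on NCO, ACO and ASO.

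In ASO minus ACO the widest ranges were at dimmer probes. A probe of Rpl17 read 735, 791 and 2212, a difference of 1.43, while the brightest of its 7 probes gave 0.22. A second probe of Rps15a read 5094, 4968 and 10039, a difference of 1.01 against 0.15 at the brightest. By signal, the 22 probes of the set between 1000 and 5000 had an ASO minus ACO median of 0.30, with 21 above 0, and 0.32 under quantile normalization. The 79 probes from 5000 to 20000 had 0.23, and 0.16 under quantile normalization. The 54 probes over 20000 had 0.21, and 0.02 under quantile normalization, and the 14 probes under 1000 had -0.06. Quantile normalization thus lowered the value most for the brightest probes, less from 5000 to 20000, and not from 1000 to 5000. Rpl23 held a probe printed 10 times, with a difference of -0.11 ± 0.09 (SD, 10 spots of 1 array each) at a signal near 955, while its brightest probe gave 0.35.

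**Figure D4:**
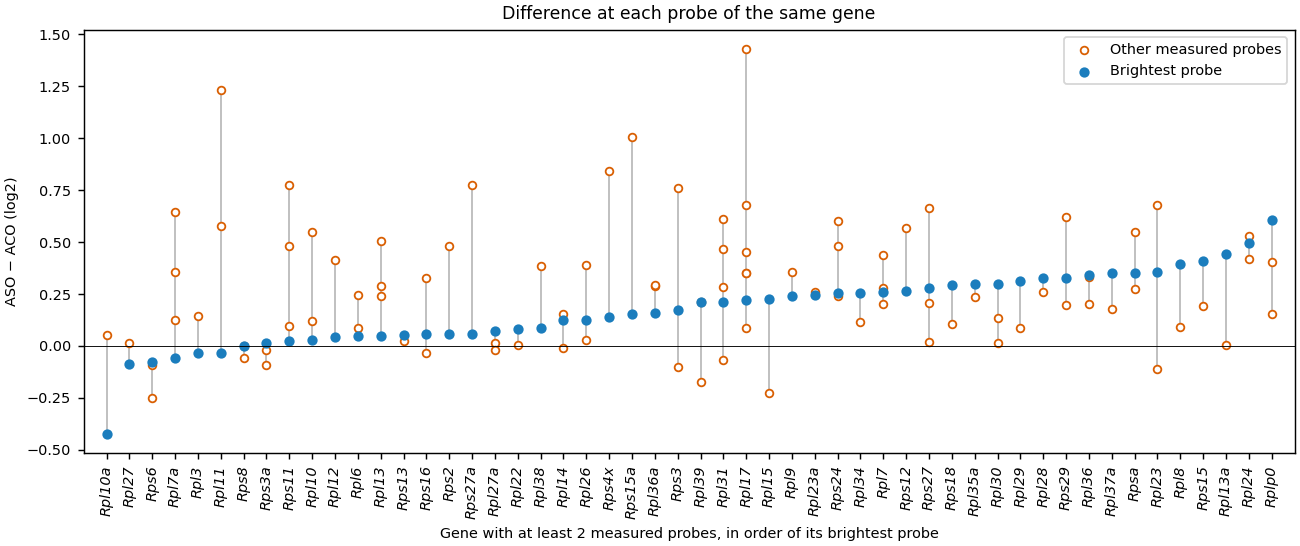
ASO minus ACO difference on the log2 scale (vertical axis) at every measured probe of the 52 ribosomal protein genes with at least 2 measured probes (horizontal axis, in order of the brightest probe); filled points are the brightest probes, open points the others, and grey lines join probes of 1 gene. Open points reach 1.43 at Rpl17 and 1.23 at Rpl11, and 78 of the 92 lie above 0.

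**Figure D5:**
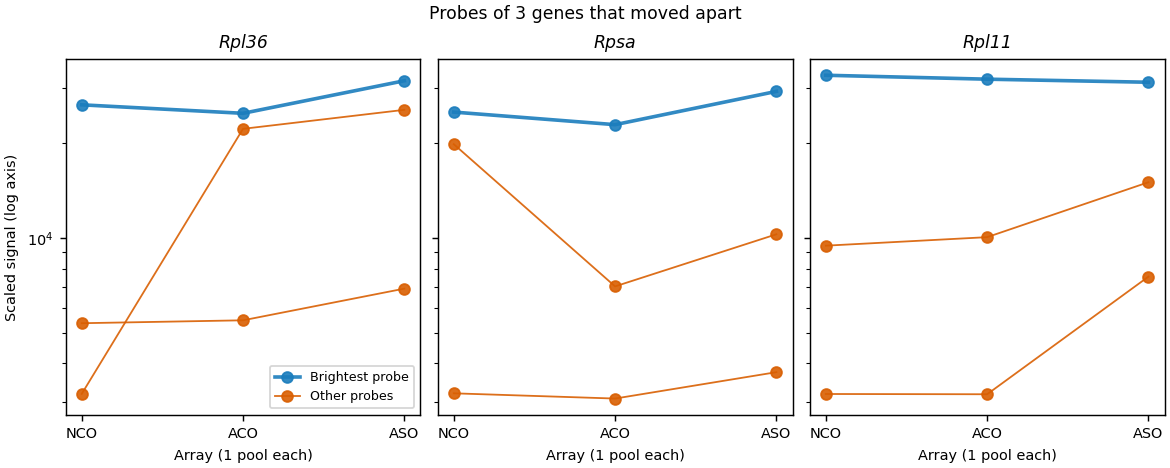
Scaled signal (vertical log axis) on the NCO, ACO and ASO arrays (horizontal axis) of every measured probe of Rpl36, Rpsa and Rpl11; thick blue lines are the brightest probes and orange lines the others, each point 1 array. One probe of Rpl36 lies low on NCO at 3192, one of Rpsa lies high on NCO at 19898, and the dimmer probes of Rpl11 are high on ASO while the brightest is not.

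Other genes of translation were read from lists drawn up for this tissue and these genes. The mitochondrial ribosomal proteins, which build the separate ribosome of that organelle, did not share the difference. Of 75 measured, 38 were above 0 in ASO minus ACO with a median of 0.00, 4 were at least 1.2-fold higher and 1 was lower. Of 42 initiation factors 14 were above 0, with a median of -0.06, 1 higher and 5 lower; Eif2b4, a subunit of the exchange factor for initiation, was at 0.53, and Larp1, which binds ribosomal protein messages, at -0.35. Of 35 assembly and nucleolar genes 14 were above 0, with a median of -0.08, 0 higher and 4 lower, among them Gtpbp4 at -0.34. Counts of lower genes in these lists are read against 9.44% of all genes, and of higher genes against 10.1%; 5 of 42 and 4 of 35 are near that share. These 3 lists lay near or below the median of all genes, and the cytosolic ribosomal proteins above it; differences between lists were not tested.

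The genes listed with elongation factors and the ribosome-bound proteins lay on the same side as the ribosomal proteins. The first list has 11 genes and also holds Eef2k, Eef1e1 and Tpt1, which are not elongation factors themselves. Of the 11, 9 were above 0 in ASO minus ACO, with a median of 0.18, or 0.11 under quantile normalization. There were 2 higher, Eef1g and Tpt1, and 0 lower, and 1 higher under quantile normalization. Eef1g, a subunit of the exchange factor for elongation, read 9924, 9150 and 15333, with ASO high at 0.74, or 0.66 under quantile normalization. Of 7 ribosome-bound proteins and fusion partners 6 were above 0, with a median of 0.21 and of -0.003 under quantile normalization. Naca, a chaperone at the exit tunnel, read 4516, 4896 and 7986, with ASO high at 0.70. Serbp1, which holds idle ribosomes, was at -0.24. Of 18 genes of the S6 kinases and mTORC1 7 were above 0, with a median of -0.05, Rptor at 0.52 and Rps6kb1 at -0.38; of 9 p53 targets 5 were above 0, with Mdm2 at -0.29 and Bax at 0.26.

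Markers of several cell types differed between the same arrays, and in a whole tissue more cells of a type and more RNA per cell cannot be told apart. Among all genes 46.6% were above 0 in ASO minus ACO, with 10.1% at least 1.2-fold higher and 9.44% lower. In ACO minus NCO 51.9% of all genes were above 0. Of 16 microglia markers 15 were measured, all but Cd68. Of these, 14 were higher on ASO than on ACO and 12 at least 1.2-fold higher. The microglia markers had a median of 0.51 and 0.53 under quantile normalization. Their summed signals on NCO, ACO and ASO were 42879, 37840 and 51439. Most of the step from NCO to ACO was the integrin gene Itgam, at 8531 and 3764; without it the sums were 34348, 34076 and 46644. The complement gene C1qa read 1598, 1329 and 2755, and P2ry12, a receptor of resting microglia, 645, 848 and 632. The 10 astrocyte markers had a median of 0.10, with Gfap at 0.84 and summed signals of 83123, 85172 and 94012. Of 13 measured choroid plexus markers 12 had more signal on ACO than on NCO, with a median of 0.37, and 11 were lower on ASO than on ACO, while the bright Ttr was at -0.46 against NCO on ACO; their sums were 44661, 44617 and 42763. The ACO signal of all 10 oligodendrocyte markers lay below NCO, with a median of -0.19 and sums of 98607, 87578 and 98154. Of 14 hippocampal neuron markers 9 were above 0 in ASO minus ACO, with a median of 0.08, 3 at least 1.2-fold higher and 1 lower. Of 6 measured blood markers 5 were above 0, with a median of 0.21, 2 higher and 1 lower. The part of these cell types in the ribosomal protein values was not tested.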

How the data were processed

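The 3 arrays are one-colour Agilent mouse arrays scanned in the Cy3 channel; per the file headers, the deposited intensities were read with GenePix Pro 6.1.0.4, and the authors' deposited table of 475 probes gives further intensity values whose scaling is not given in the sources used here. Foreground and background medians were corrected by normexp (limma 3.58.1 in R 4.3.3), scaled to a common 75th percentile of gene spots, raised by 50 and put on the log2 scale, and spots of a probe were averaged. Each spot's signal-to-noise score and its percent of saturated pixels are GenePix values as deposited, per the file headers; a saturated spot has at least 50% saturated pixels. With 1 array per group, called means past 1.2-fold or 2-fold and no p-value was computed. Surrounding spots are the measured spots within 5 rows and columns. Recovery of known shifts was tested on simulated data. Accessions of 167 of the 180 probes were found in the RefSeq gene table (GRCm38.p6); 165 kept the symbol.

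Genes named were the 5 highest and 5 lowest in signal and in each comparison, saturated or unmeasured members, the stalk, genes with outside roles and paralog pairs; of other lists, some of the 2 highest and 2 lowest. The members and all lists were chosen with earlier results of these data known. The 17 alternatives cover background, scaling, the added constant, filters, saturation, the choice of probe, slide position and names. A member counted in the totals is not reported by name here.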

Additional observations from a re-analysis of the deposited data

How the results depend on the processing

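None of the 17 alternatives scaled the arrays to the E1A control probes. The median of the ribosomal protein genes kept its sign under all 17 in all 3 comparisons. It ran from -0.07 to -0.02 for ACO minus NCO, 0.08 to 0.25 for ASO minus ACO and 0.04 to 0.22 for ASO minus NCO. For ASO minus ACO it was 0.0845 with quantile normalization and 0.11 scaled to the array median, which moved the median of all genes by -0.10 as well, and relative to all genes it ran from 0.12 to 0.26. Genes at least 1.2-fold higher in ASO minus ACO numbered 11 with quantile normalization, against 8.75% of all genes, and 10 with median scaling. In ASO minus NCO they numbered 11 with quantile normalization, against 1179 of all 13206 genes, 9 with median scaling and 33 with the dimmest probe. In ACO minus NCO they numbered 2 with quantile normalization, against 351 of all 13206 genes, and 2 with the dimmest probe or the mean over probes. Genes at least 1.2-fold lower numbered 1 in ACO minus NCO with the dimmest probe, 1 in ASO minus ACO after correction by the surrounding spots, and in ASO minus NCO 0 after that correction, 1 with the mean over probes and 5 with median scaling. With the dimmest probe 2 genes were at least 2-fold higher in ASO minus ACO and 1 in ASO minus NCO, and with the mean over probes 1 in ASO minus NCO. Shares of all genes were not computed with median scaling, another choice of probe or the correction by surrounding spots. Counts under those settings thus cannot be set against all genes. Of the named genes past 1.2-fold, these changed sign, with another probe: with the dimmest, Rpl10a to 0.0542 in ASO minus ACO and 0.0563 in ASO minus NCO, Rpl13 to 0.37 in ACO minus NCO and 0.88 in ASO minus NCO, and Rpl39 to 0.0317 in ACO minus NCO; with the mean over probes, Rpl13 to 0.25 in ASO minus NCO. Named genes within 1.2-fold, such as Rpl41 and Rpl10 in ASO minus ACO, changed sign with quantile normalization too. The cause was not tested. No paired analysis was possible because each group is 1 array, and no array could be left out. Saturation limits the brightest probes.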

Other observations

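Probes named for ribosomal protein pseudogenes also lay above 0 in ASO minus ACO, over a wide range. Of 17 probes with -ps names 14 were measured, all 14 were above 0 in ASO minus ACO, where 46.6% of all genes were. At least 1.2-fold higher were 8, against 10.1% of all genes, and at least 2-fold higher were 2, against 0.189%. They ran from 0.01 to 1.41 with a median of 0.60, and no test against the parent genes was run. Rpl34-ps1 read 787, 732 and 2030 on NCO, ACO and ASO, a difference of 1.41, and Rpl26-ps4 read 1295, 1208 and 2317, a difference of 0.91. Rps6-ps2 read 27085, 25415 and 25630 and differed by 0.01. In ACO minus NCO the 14 had a median of -0.01. These probes can share sequence with the parent genes, so their signals cannot be assigned to either, and they were named after their values were seen.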
